A study of Mus musculus with 47 samples.

Results

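The interferon receptor subunits described here are 5 genes, Ifnar1, Ifnar2, Ifngr1, Ifngr2 and Il10rb, taken by symbol from the 38087 genes of the raw exon count table. All 5 were present, and all 5 passed the filter on low counts in both tissues. They were chosen by the measured difference between germ-free and conventionally raised mice, and in particular because that of Ifnar2 had opposite signs in the 2 tissues. That difference is therefore given as a description with its error and without a test.

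The libraries hold total RNA of small intestine from male C57BL/6j mice aged 15 to 16 weeks, all fed ad libitum. There were 11 libraries of germ-free (GF) ileum, 12 of conventionally raised (convR) ileum, 12 of GF duodenum and 12 of convR duodenum. GF mice live without microorganisms, and convR mice carry an ordinary gut flora. The duodenum is the part of the small intestine next to the stomach, and the ileum is the part next to the colon. Tissue was taken every 4 h at zeitgeber times (ZT, hours from lights on) 2, 6, 10, 14, 18 and 22, with 2 libraries per group and time, except GF ileum at ZT 2 with 1. The labels do not tell if the libraries of a group are separate animals. All p-values therefore rest on the spread between samples, which may be technical.

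Total counts ran from 22.55 to 41.91 M (1 M is 1e+06) per library, with a median of 31.94 M. Levels are in CPM, counts relative to each 1 M counts of the library, whose size was adjusted with TMM, the trimmed mean of M values. Only for Fabp6 and Gata4 here, and for the rule by which libraries stood apart, are marker levels relative to library totals without TMM. The ileum marker Fabp6 lay between 206.3 and 4484 CPM in ileum and between 0.210 and 2.41 CPM in duodenum. The proximal factor Gata4 lay between 1.28 and 79.1 CPM in ileum and between 115.4 and 184.0 CPM in duodenum. 2 ileum libraries, GF ZT 22 replicate 2 and convR ZT 6 replicate 2, stood apart by a low Fabp6 level, and 10 of the 24 duodenum libraries, 3 GF and 7 convR, stood apart by pancreas or stomach RNA or by a high scaling factor. Ifnar2 was at 8.82 CPM in the GF and at 11.5 CPM in the convR library of these 2 in ileum, within the range of the other libraries of each group. The tissue difference of Ifnar2 without the 12 libraries is given beside it. Leaving them out left duodenum with no convR library at ZT 6 or ZT 14 and no GF library at ZT 22. GF minus convR in duodenum, with time as a factor, then rested on ZT 2, ZT 10 and ZT 18. Where a call was lost in that fit, fewer libraries and the kind of library left out cannot be told apart.

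Interferons and the related interleukins signal through pairs of receptor chains of the class II cytokine receptor family. Type I interferons bind IFNAR2, the chain with high affinity, which then pairs with IFNAR1. Interferon gamma binds IFNGR1, and IFNGR2 completes that receptor. IL10RB is the shared chain that pairs with IL10RA for interleukin-10, with IL22RA1 for interleukin-22 and with IFNLR1 for type III interferons. JAK1, JAK2 and TYK2 kinases sit on the chains and activate STAT proteins, which turn on interferon-stimulated genes. In the gut, type III interferon and interleukin-22 act mainly on the epithelium, while interleukin-10 acts mainly on immune cells.

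Of the 5 genes, 4 lie in 1 cluster on mouse chromosome 16 (GENCODE M21, build mm10, all on the plus strand). Ifnar2 is at chr16:91372783-91405589, Il10rb at chr16:91406164-91425834, Ifnar1 at chr16:91485238-91507441 and Ifngr2 at chr16:91547072-91565623. Ifngr1 lies apart at chr10:19591949-19610229, also on the plus strand.

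The promoter windows of Ifnar2 and Ifnar1 are shown because these genes encode the 2 chains of 1 receptor, sit 112 kb apart and had different patterns in the data. Each window runs from 250 bases before to 30 bases after the start of the RefSeq gene model (GRCm38.p6), which lies at chr16:91372533-91372812 for Ifnar2 and at chr16:91484965-91485244 for Ifnar1, plus strand. Capitals mark the match to the gamma-activated sequence, the motif bound by STAT dimers, searched as TTCNNNGAA, whose reverse complement is the same pattern.
Ifnar2: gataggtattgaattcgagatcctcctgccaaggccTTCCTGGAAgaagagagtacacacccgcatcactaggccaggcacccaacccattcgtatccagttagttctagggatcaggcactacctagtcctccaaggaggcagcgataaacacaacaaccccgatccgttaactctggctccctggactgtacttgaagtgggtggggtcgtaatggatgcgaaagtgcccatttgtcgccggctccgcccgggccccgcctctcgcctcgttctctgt
Ifnar1: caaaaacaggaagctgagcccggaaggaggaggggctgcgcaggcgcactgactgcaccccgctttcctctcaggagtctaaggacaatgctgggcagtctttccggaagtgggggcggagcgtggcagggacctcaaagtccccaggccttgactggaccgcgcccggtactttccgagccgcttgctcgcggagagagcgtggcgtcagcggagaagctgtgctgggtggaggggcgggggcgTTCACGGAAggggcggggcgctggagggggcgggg

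The match began 214 bases before the start in Ifnar2 and 5 bases before it in Ifnar1, where it runs across the start. The windows of Ifngr1 and Ifngr2 held no such match, and Il10rb had no entry, so 4 of 5 genes were searched. The motif was present in 7.83% of 32851 windows of the same length. The core of the interferon-stimulated response element, GAAANNGAAA, was absent from all 4 windows on both strands and present in 3.28% of all windows. The GC content was 56.1% for Ifnar2 and 67.9% for Ifnar1.

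Ifnar2 was the subunit whose level varied most. It ran from 6.44 to 9.004 CPM in GF ileum, with a median of 7.68 CPM, and from 9.95 to 12.1 CPM in convR ileum, with a median of 10.6 CPM. It ran from 26.2 to 48.6 CPM in GF duodenum, with a median of 39.5 CPM, and from 16.8 to 26.6 CPM in convR duodenum, with a median of 21.4 CPM. Every ileum library was below every duodenum library. GF and convR did not overlap in ileum, where GF was the lower, and overlapped only between 26.2 and 26.6 CPM in duodenum, where GF was the higher. The group means were 7.84 ± 0.80 CPM in GF ileum (SD, n = 11), 10.9 ± 0.75 CPM in convR ileum, 37.2 ± 6.96 CPM in GF duodenum and 21.4 ± 2.77 CPM in convR duodenum (SD, n = 12 each).

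Between tissues, averaged over GF and convR, Ifnar2 fell by 1.60 ± 0.05 (log2 ± SE), or 3.03-fold, in ileum relative to duodenum (edgeR quasi-likelihood test, adjusted p = 3.71e-26). Of all 19000 genes tested, 5.73% had a larger absolute difference between tissues. Without the libraries that stood apart the difference was -1.71 on the log2 scale. In bulk samples, fewer cells that carry the transcript and less of it per cell cannot be told apart. Over the same libraries the summed level of 8 T cell markers was 2.82 to 9.15 CPM in GF ileum, 32.3 to 66.0 CPM in convR ileum, 30.7 to 47.4 CPM in GF duodenum and 33.7 to 84.8 CPM in convR duodenum. The 8 epithelium markers summed to 11990 to 15430 CPM in GF ileum, 10960 to 14700 CPM in convR ileum, 7291 to 10770 CPM in GF duodenum and 5269 to 10290 CPM in convR duodenum. The 8 macrophage and dendritic markers summed to 86.0 to 126.9 CPM in GF ileum, 194.0 to 288.8 CPM in convR ileum, 143.9 to 216.3 CPM in GF duodenum and 245.6 to 434.5 CPM in convR duodenum. No marker of these lists was at 0 in a group mean, and their part in the levels of the subunits was not tested.

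The tissue difference of Ifnar2 was -2.24 ± 0.07 in GF and -0.97 ± 0.07 in convR (log2 ± SE). The gap between these 2 values is the same contrast as the one the gene was chosen for, and it was not tested. GF minus convR was -0.48 ± 0.06 in ileum, a 1.40-fold lower level in GF, and 0.79 ± 0.08 in duodenum, a 1.73-fold higher level in GF. In ileum GF was lower at 6 of 6 times, by 0.34 to 0.59, and every GF library was below every convR library of its time at 6 of 6 times. In duodenum GF was higher at 6 of 6 times, by 0.39 to 1.01, again with no overlap at 6 of 6 times. Each time held at most 2 libraries per group, and the share of all genes with no such overlap was not counted. These counts describe the difference that the gene was chosen for. Over all genes, 42.0% of 18082 in ileum and 46.3% of 17986 in duodenum passed the threshold for this difference in either direction, and the median difference was 0.0068 in ileum and -0.0078 in duodenum.

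**Figure D1:**
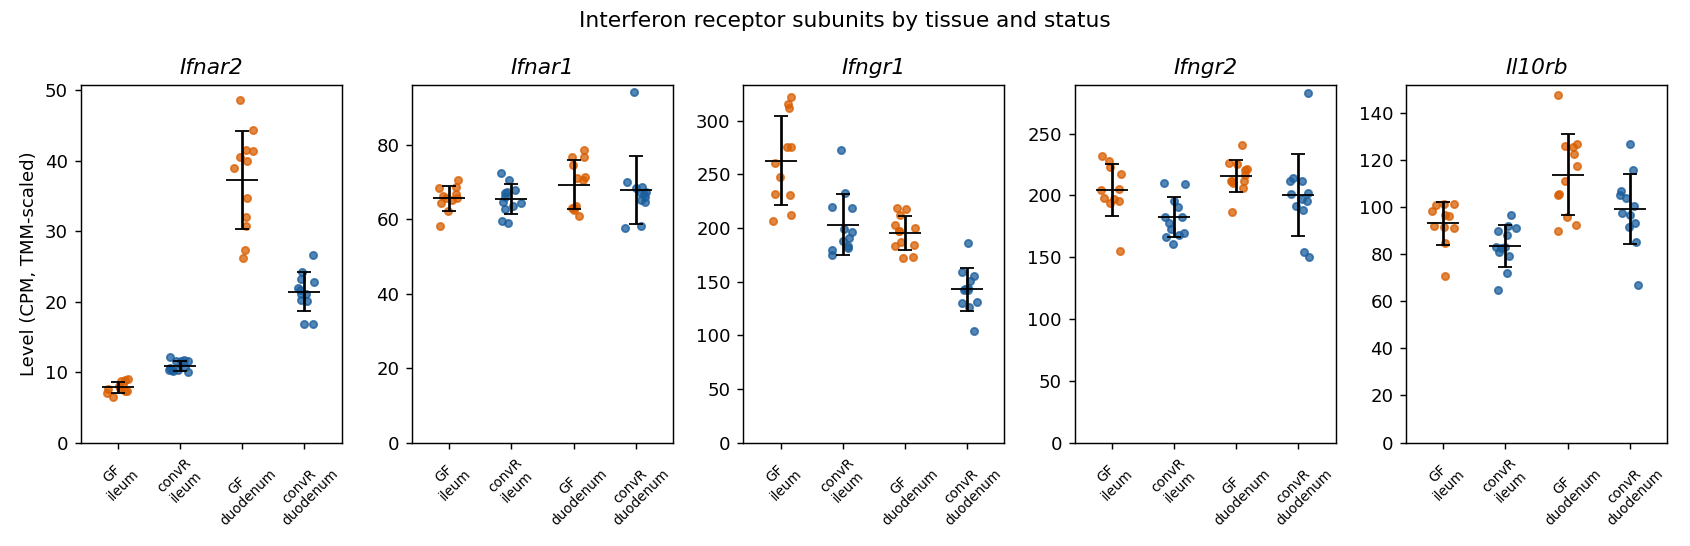
Level of each subunit in TMM-scaled CPM in GF ileum (11 libraries), convR ileum, GF duodenum and convR duodenum (12 libraries each). Each point is a library, and the bar and whiskers are the mean and SD. Ifnar2 lies between 6.44 and 12.1 CPM in ileum and between 16.8 and 48.6 CPM in duodenum, while Ifnar1 stays between 57.8 and 94.2 CPM in the 4 groups.

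Ifnar1 encodes the partner chain of the type I receptor. It ran from 58.1 to 70.6 CPM in GF ileum, with a median of 65.7 CPM, and from 58.9 to 72.3 CPM in convR ileum, with a median of 65.3 CPM. It ran from 60.9 to 78.5 CPM in GF duodenum, with a median of 70.7 CPM, and from 57.8 to 94.2 CPM in convR duodenum, with a median of 66.9 CPM. All 4 groups overlapped, and the highest value came from 1 convR duodenum library at ZT 10. Ileum minus duodenum was -0.06 ± 0.03 (log2 ± SE, edgeR adjusted p = 0.0803), with the opposite sign, 0.014, when libraries were scaled by their totals alone. GF minus convR was 0.0043 ± 0.036 in ileum and 0.03 ± 0.05 in duodenum, and its sign turned in both tissues under scaling by totals alone, to -0.05 in ileum and -0.10 in duodenum, and without the libraries that stood apart, to -0.0054 in ileum and -0.0088 in duodenum. That scaling moved the median of all genes in duodenum to -0.14, against -0.0078 with TMM.

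The ratio of the 2 chains within each library, per length of exon, does not depend on library scaling. Ifnar2 over Ifnar1 ran from 0.184 to 0.256 in GF ileum, 0.270 to 0.320 in convR ileum, 0.687 to 1.17 in GF duodenum and 0.433 to 0.635 in convR duodenum. The geometric mean of the ratio was 0.211 in GF ileum, 0.294 in convR ileum, 0.936 in GF duodenum and 0.556 in convR duodenum. The 2 chains were thus closest in GF duodenum and farthest apart in GF ileum. The ratio was lower in ileum by 1.54 on the log2 scale (two-sided permutation test of tissue labels within status and time, p = 1e-05, the smallest that 100000 resamples can give).

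Ifngr1, the chain that binds interferon gamma, was highest in GF ileum. It ran from 206.4 to 322.6 CPM in GF ileum, with a median of 260.5 CPM, and from 175.2 to 273.2 CPM in convR ileum, with a median of 193.7 CPM. It ran from 172.2 to 218.8 CPM in GF duodenum, with a median of 197.4 CPM, and from 104.1 to 185.7 CPM in convR duodenum, with a median of 143.1 CPM. GF was the higher of the 2 statuses in both tissues, with some overlap in each. Averaged over status, Ifngr1 rose by 0.47 ± 0.05 in ileum relative to duodenum (log2 ± SE, 1.39-fold, edgeR adjusted p = 1.07e-10), the direction opposite to that of Ifnar2. The tissue difference was 0.43 ± 0.07 in GF and 0.51 ± 0.07 in convR.

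For Ifngr1, GF minus convR was 0.38 ± 0.08 in ileum and 0.46 ± 0.06 in duodenum (log2 ± SE), positive in both tissues. It was higher in GF at 6 of 6 times in each tissue. The 2 statuses did not overlap at 4 of 6 times in ileum and at 6 of 6 times in duodenum, and the share of all genes with no such overlap was not counted.

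Ifngr2, the partner chain that brings JAK2 to the interferon gamma receptor, had a median between 180.3 and 214.1 CPM in each group. It ran from 154.8 to 231.8 CPM in GF ileum, with a median of 204.2 CPM, and from 160.6 to 210.2 CPM in convR ileum, with a median of 180.3 CPM. It ran from 186.7 to 240.7 CPM in GF duodenum, with a median of 214.1 CPM, and from 150.2 to 282.7 CPM in convR duodenum, with a median of 199.0 CPM. The ranges of all 4 groups overlapped. Ileum minus duodenum was -0.10 ± 0.04 (log2 ± SE, edgeR adjusted p = 0.0367), a call that was lost under scaling by library totals alone (-0.027, adjusted p = 0.492), without any 1 of ZT 2, ZT 10 or ZT 22, and without any 1 of 7 libraries. GF minus convR was 0.16 ± 0.05 in ileum and 0.12 ± 0.07 in duodenum, the duodenum value at -0.0070 under scaling by totals alone.

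The within-library ratio of Ifngr2 over Ifngr1 per length ran from 0.594 to 0.843 in GF ileum, 0.600 to 0.986 in convR ileum, 0.810 to 1.10 in GF duodenum and 1.02 to 1.32 in convR duodenum. The signal chain was thus above the ligand-binding chain in every convR duodenum library, and below it in every ileum library. The ratio was lower in ileum by 0.57 on the log2 scale (two-sided permutation test, p = 1e-05, adjusted over the 2 ratios 1e-05).

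Il10rb, the chain shared by the interleukin-10, interleukin-22 and type III interferon receptors, ran from 70.6 to 101.4 CPM in GF ileum, with a median of 96.2 CPM, and from 64.6 to 96.5 CPM in convR ileum, with a median of 83.2 CPM. It ran from 89.9 to 147.6 CPM in GF duodenum, with a median of 114.3 CPM, and from 66.8 to 126.6 CPM in convR duodenum, with a median of 99.0 CPM. Each pair of groups overlapped. Il10rb fell by 0.26 ± 0.05 in ileum relative to duodenum (log2 ± SE, 1.199-fold, edgeR adjusted p = 1.86e-05). GF minus convR was 0.16 ± 0.06 in ileum and 0.19 ± 0.08 in duodenum.

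In all, 4 of the 5 subunits passed the threshold between tissues (edgeR, adjusted p under 0.05), against 69.7% of all genes tested. A share of 4 in 5 is near that background. The size of the difference of Ifnar2 was exceeded by 5.73% of genes, as given above. Ifngr1 alone was higher in ileum, where 36.4% of all genes were called higher, and 3 were lower, where 33.3% were called lower.

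Compared per length, as CPM per kb of summed exons, the interferon gamma chains stood at the top and the type I chains at the bottom in each group. In GF ileum the means were 92.3 ± 14.5 for Ifngr1, 61.7 ± 6.44 for Ifngr2, 24.4 ± 2.38 for Il10rb, 11.2 ± 0.57 for Ifnar1 and 2.36 ± 0.24 for Ifnar2 (SD, n = 11). In convR ileum the means were 71.4 ± 9.995 for Ifngr1, 55.0 ± 4.92 for Ifngr2, 21.9 ± 2.34 for Il10rb, 11.1 ± 0.68 for Ifnar1 and 3.27 ± 0.22 for Ifnar2 (SD, n = 12). In GF duodenum Ifngr1 at 68.7 ± 5.60 and Ifngr2 at 65.1 ± 3.97 did not differ beyond their spread, nor did Ifnar1 at 11.8 ± 1.11 and Ifnar2 at 11.2 ± 2.09, with Il10rb between these pairs at 29.9 ± 4.48. In convR duodenum the order of the top pair was turned round, with Ifngr2 at 60.3 ± 10.02 and Ifngr1 at 50.2 ± 7.02. Their spreads over libraries overlap, but the ratio within a library was 1.02 to 1.32, above 1 in each. Il10rb followed at 26.0 ± 3.94, then Ifnar1 at 11.5 ± 1.56 and Ifnar2 at 6.42 ± 0.83. The length counts every exon of the annotated gene, so a level per length is low where long exons are little used.

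Time of day was not used to choose the genes. No subunit passed the threshold for a rhythm of 24 h, averaged over status, in either tissue (edgeR, 0 of 5), against 3.37% of genes in ileum and 5.62% in duodenum. At an unadjusted p under 0.05 there were 2 of 5 in ileum and 2 of 5 in duodenum, where 3200 of 18082 genes in ileum and 3994 of 17986 in duodenum were under it. DESeq2 called 0 subunits in ileum and 1, Ifnar1, in duodenum, among 1155 genes in ileum and 1702 in duodenum. The closest was Ifnar1 in duodenum, with a peak-to-trough range of 0.29 ± 0.08 (log2 ± SE), a peak at ZT 8.68 and an adjusted p of 0.0661. Its lowest mean was at ZT 18 in both statuses, 61.6 CPM in GF and 58.0 CPM in convR, and its highest at ZT 10, 76.8 CPM in GF and 79.4 CPM in convR.

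Ifnar2 in duodenum had its highest time mean at ZT 10 in both statuses, 44.6 CPM in GF and 24.9 CPM in convR, and its lowest at ZT 22 in GF, 28.5 CPM, and at ZT 6 in convR, 18.4 CPM. Its range of 0.33 ± 0.12 did not pass the threshold (adjusted p = 0.188, from 0.0321 to 0.631 over the alternatives). In ileum its time means stayed between 7.34 and 8.22 CPM in GF and between 10.2 and 11.5 CPM in convR. In the same libraries the clock gene Arntl had a range of 2.59 ± 0.19 in ileum and 2.96 ± 0.29 in duodenum (adjusted p = 7.53e-07 and 2.18e-05). No subunit differed in rhythm between GF and convR in either tissue (edgeR, 0 of 5, also 0 at an unadjusted p under 0.05 and 0 with DESeq2), and of all genes 0% were called, with 608 in ileum and 739 in duodenum at an unadjusted p under 0.05.

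**Figure D2:**
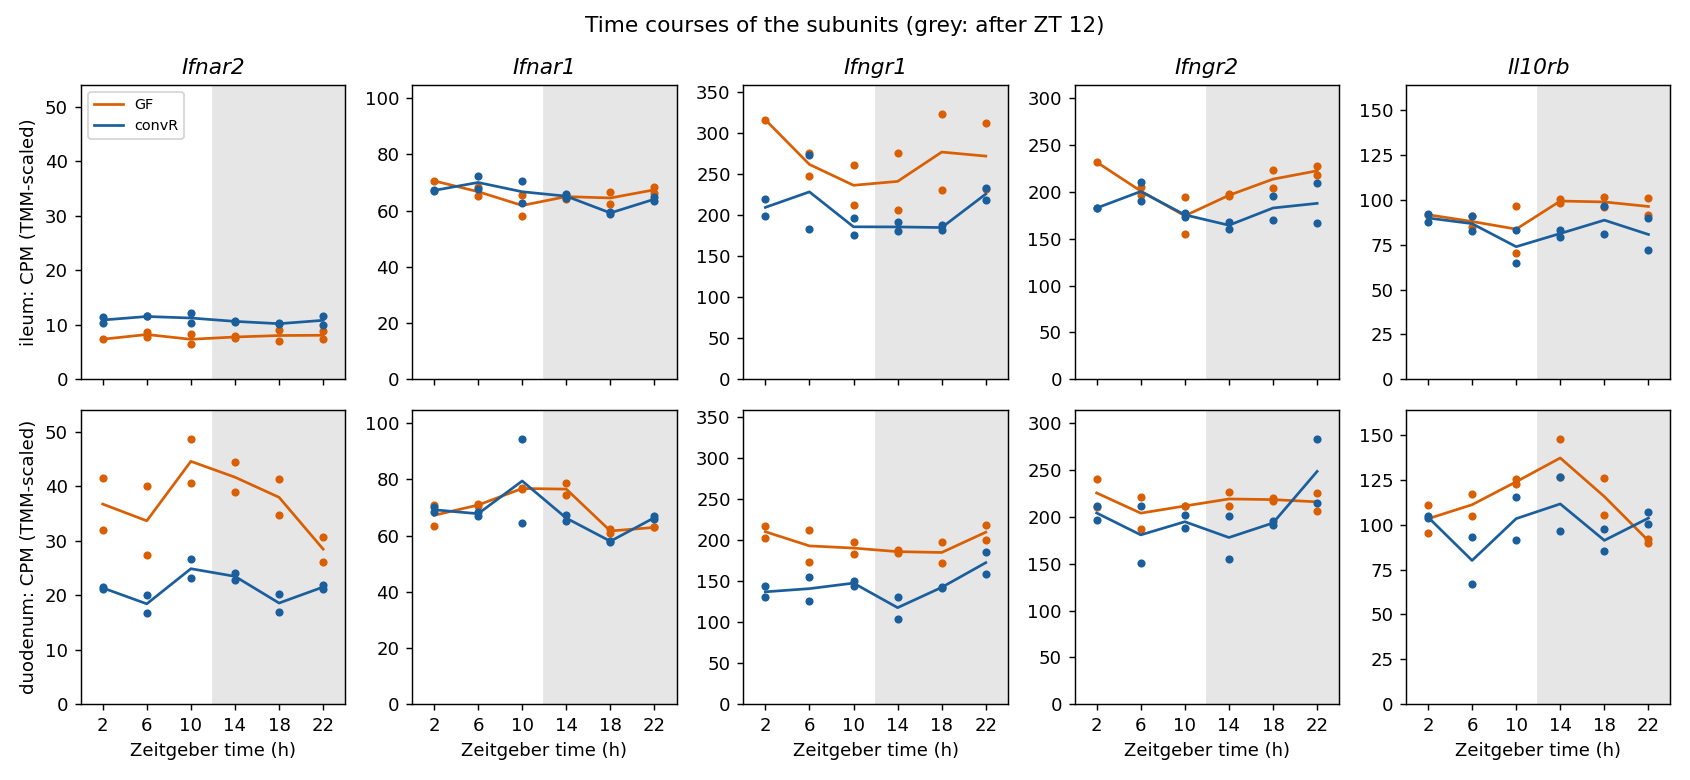
Level of each subunit in CPM against zeitgeber time in h, for ileum (top) and duodenum (bottom), with GF in orange and convR in blue. Points are libraries and lines join the means of each time. GF Ifnar2 lies below convR at 6 of 6 times in ileum and above it at 6 of 6 times in duodenum.

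The neighbours of the cluster on chromosome 16 were measured with it. Gm21970, an annotated read-through locus at chr16:91391721-91419451, joins exons of Ifnar2 and Il10rb and shares 315 of the 3329 exon bases of Ifnar2 and 569 of the 3808 of Il10rb. How reads in the shared bases were counted is not given in the sources used here, so the counts of these genes are uncertain. The share of bases does not bound the share of reads. In GF ileum Gm21970 averaged 8.94 CPM per kb of exon, against 2.36 for Ifnar2. Gm21970 averaged 38.3 ± 3.24 CPM in GF ileum (SD, n = 11), 36.9 ± 3.06 CPM in convR ileum, 61.6 ± 9.32 CPM in GF duodenum and 48.1 ± 6.12 CPM in convR duodenum (SD, n = 12 each). It fell by 0.52 ± 0.04 in ileum relative to duodenum (edgeR adjusted p = 5.26e-14). In GF relative to convR it rose by 0.35 ± 0.06 in duodenum (adjusted p = 0.000161) and did not pass the threshold in ileum, at 0.05 ± 0.05 (adjusted p = 0.410).

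Of the genes on either side, Tmem50b, next to Ifngr2, fell by 0.67 ± 0.06 in ileum relative to duodenum (edgeR adjusted p = 1.51e-13) and fell by 0.27 ± 0.05 in GF ileum relative to convR ileum (adjusted p = 0.000364), with 0.04 ± 0.09 in duodenum. Dnajc28 fell by 0.57 ± 0.07 in ileum relative to duodenum and rose by 0.45 ± 0.11 in GF duodenum (adjusted p = 0.00204, and 0.158 without the libraries that stood apart), with -0.13 ± 0.08 in ileum. The antisense transcript Gm15964, which overlaps it, fell by 0.85 ± 0.16 in GF ileum, at a mean of 1.30 CPM over all libraries, and whether strand was used in counting is not given. On the far side of Ifnar2, 4932438H23Rik rose by 0.53 ± 0.11 in GF ileum (adjusted p = 0.000624), while 4931406G06Rik, H3f3a-ps2 and, inside the cluster, A930006K02Rik did not pass for GF minus convR in either tissue and averaged under 1 CPM. 4932438H23Rik also overlaps an antisense gene, 4931406G06Rik.

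**Figure D3:**
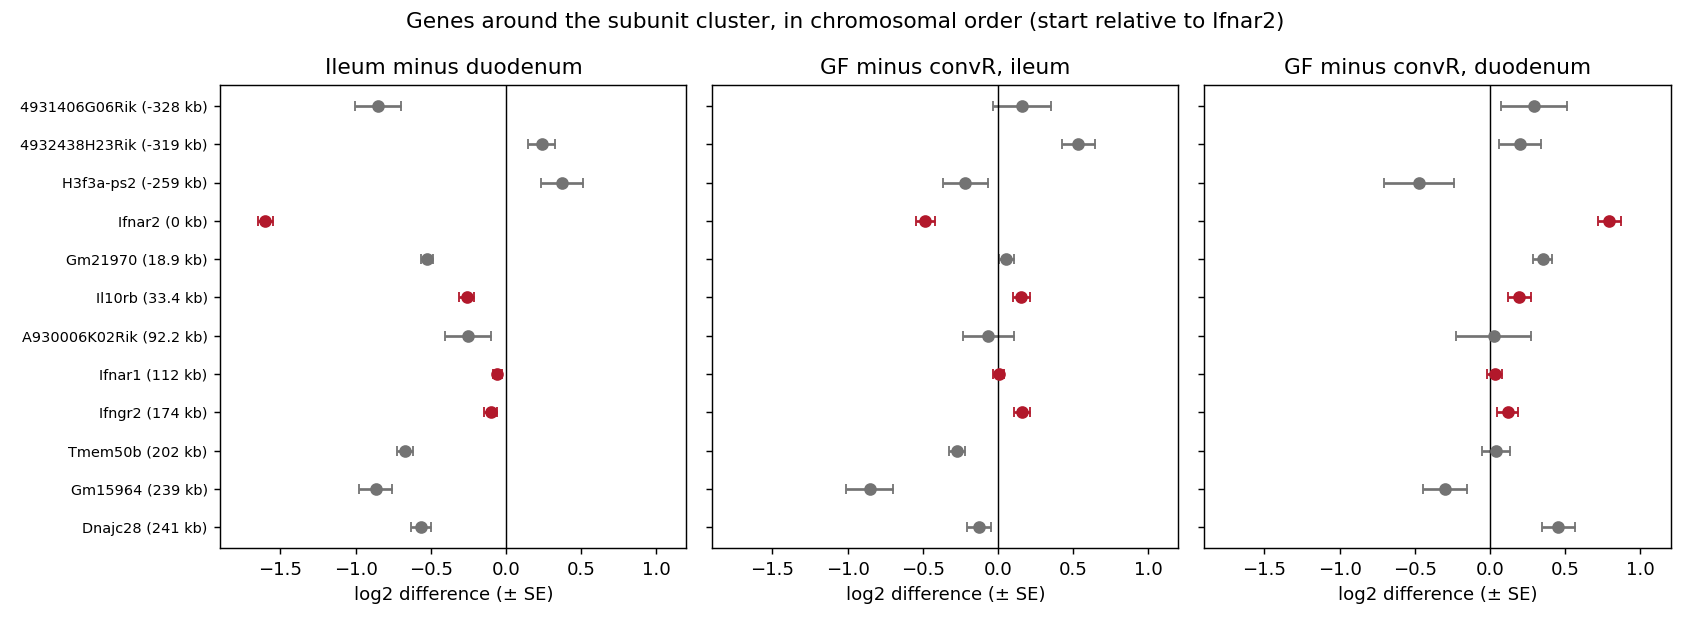
Log2 differences with SE for ileum minus duodenum, GF minus convR in ileum and GF minus convR in duodenum, for the chromosome 16 subunits (red) and their tested neighbours (grey), in chromosomal order from top to bottom, with the distance of each start from that of Ifnar2 in kb. Ifnar2 stands at -1.60, -0.48 and 0.79, farther from 0 than the other 3 subunits in each panel.

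Among the genes whose pattern over the 24 means of tissue, status and time was most like that of Ifnar2, out of 12193 genes of at least 2 CPM, were Dcun1d4, Bin1, Ncoa7 and Fzd4. The root mean square difference of their centred log2 levels from Ifnar2 was 0.23, 0.23, 0.24 and 0.25 in that order. They share libraries and scaling, and the value is a description. Fzd4 encodes a Wnt receptor, Bin1 a membrane-bending protein, Dcun1d4 a cullin neddylation factor and Ncoa7 a nuclear receptor coactivator. Between tissues these 4 were lower in ileum by 1.39 to 1.83 on the log2 scale. GF minus convR was -0.39 ± 0.12 in ileum and 0.39 ± 0.10 in duodenum for Bin1. In duodenum that call was lost without the libraries that stood apart (edgeR adjusted p = 0.0528). In ileum the other 3 did not pass, with Dcun1d4 at -0.14 ± 0.06, Ncoa7 at -0.05 ± 0.09 and Fzd4 at -0.19 ± 0.10. In duodenum they rose in GF, Dcun1d4 by 0.72 ± 0.07, Ncoa7 by 0.835 ± 0.079 and Fzd4 by 0.71 ± 0.06. By the same measure the other subunits lay from 0.72 (Il10rb) to 1.08 (Ifngr1) away from Ifnar2. The nearest genes were Iws1 and Tmem134 for Ifnar1, Fam134a and Cnppd1 for Ifngr1, Tmub2 and Stat6 for Ifngr2, and Dync1li1 and Golph3 for Il10rb, at distances of 0.08 to 0.14. The measure depends on how much a gene itself varies, so these distances do not compare likeness between subunits. The SD of the log2 level over the 24 means was 0.87 for Ifnar2 and 0.35 for Ifngr1. It was 0.22 for Il10rb, 0.15 for Ifngr2 and 0.11 for Ifnar1.

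The rest of the pathway was read from lists, with the call over all genes. Of the ligands, none of 18 type I interferons, 3 type II and III interferons and 6 members of the interleukin-10 family passed the filter on low counts in either tissue. Ifng, the ligand of IFNGR1, had 185 counts over 39 of the 47 libraries, Il10 had 180 counts over 44 libraries and Il22 had 63 counts over 19 libraries. In CPM, Ifng averaged 0.022 in GF ileum, 0.25 in convR ileum, 0.052 in GF duodenum and 0.13 in convR duodenum. Il10 averaged 0.054, 0.16, 0.071 and 0.18 in the same order. Il22 was at 0 in every GF library, and averaged 0.10 in convR ileum and 0.051 in convR duodenum. These genes were under the filter, and their differences were not tested. Of the type I genes, Ifnk had 91 counts, Ifnz 14, Ifne 10 and Ifnab 7. Ifnk, also untested, averaged 0.078 CPM in GF ileum, 0.052 in convR ileum, 0.055 in GF duodenum and 0.058 in convR duodenum.

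The other class II receptor chains, the partners and relatives of Il10rb, gave 2 higher and 2 lower of 6 tested in GF ileum, and 2 higher and 3 lower of 6 in GF duodenum (1 higher and 3 lower under scaling by totals alone). For comparison, 19.5% of all genes in ileum were called higher and 22.4% lower, and 22.5% in duodenum higher and 23.8% lower. Ifnlr1, the type III interferon chain, listed under its older symbol Il28ra, averaged 28.0 ± 2.48 CPM in GF ileum (SD, n = 11) and 21.5 ± 3.42 CPM in convR ileum, and 38.8 ± 8.65 CPM in GF duodenum and 27.3 ± 2.27 CPM in convR duodenum (SD, n = 12 each). It rose by 0.39 ± 0.08 in GF ileum (edgeR adjusted p = 0.000374) and by 0.48 ± 0.08 in GF duodenum (adjusted p = 2.86e-05). Il10ra, the interleukin-10 chain of immune cells, fell by 1.06 ± 0.09 in GF ileum and by 0.45 ± 0.07 in GF duodenum (adjusted p = 1.21e-08 and 1.87e-05). Il22ra1, the epithelial interleukin-22 chain, was at -0.0088 ± 0.070 in ileum and 0.05 ± 0.09 in duodenum. The decoy chain Il22ra2 fell by 0.77 ± 0.18 in ileum and by 0.88 ± 0.16 in duodenum, and Il20rb rose by 0.34 ± 0.10 in ileum and by 0.50 ± 0.17 in duodenum. The call of Il20rb in ileum was lost without ZT 18 (adjusted p = 0.0591), and that in duodenum was lost under scaling by totals alone and without any 1 of ZT 2, ZT 10 or ZT 18. F3, which encodes tissue factor, fell by 0.30 ± 0.09 in GF duodenum (a call lost without the libraries that stood apart) and was at 0.24 ± 0.11 in ileum. Il20ra did not pass the filter.

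Of the 3 chains that pair with IL10RB, Ifnlr1 was thus higher in GF, Il10ra was lower in GF and Il22ra1 passed in neither tissue. Of the marker lists, 8 of 8 T cell markers and 8 of 8 macrophage and dendritic markers were lower in GF in each tissue. Their part in the difference of Il10ra was not tested.

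The JAK and STAT transducers gave 1 higher and 5 lower of 7 in GF ileum (median -0.22), and 0 higher and 0 lower of 7 in GF duodenum (median 0.06, edgeR, with 1 at an unadjusted p under 0.05 and 0 with DESeq2). Jak1 fell by 0.14 ± 0.04 and Stat3 fell by 0.22 ± 0.06 in GF ileum, while Jak2 rose by 0.16 ± 0.05, a call lost under scaling by totals alone and without ZT 14 or ZT 18. Among 13 inhibitors of receptor signalling 0 were higher and 6 lower in GF ileum, and 3 were higher and 1 lower in GF duodenum, which turned to 0 higher and 7 lower under scaling by library totals alone. Of these, the phosphatase gene Ptpn6 fell by 0.44 ± 0.09 in ileum, Pias2 rose by 0.14 ± 0.04 in duodenum, a call lost under scaling by totals alone, without the filter and without the libraries that stood apart, and Ptpn11 and Pias1 passed in neither tissue.

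Of 26 type I interferon targets, 2 were higher and 14 lower in GF ileum (median -0.49), and 1 was higher and 5 lower in GF duodenum (median -0.16). Of 25 interferon gamma targets, 0 were higher and 25 lower in GF ileum (median -1.73), and 0 were higher and 20 lower in GF duodenum (median -0.56). In duodenum 3 were lower without the 10 libraries that stood apart, a fit that compared the statuses only at ZT 2, ZT 10 and ZT 18. The medians over all genes tested are given above. Among the most abundant interferon gamma targets, Irf1 fell by 0.99 ± 0.12 in GF ileum and was at -0.09 ± 0.08 in duodenum. Psmb8, an immunoproteasome subunit, fell by 2.58 ± 0.20 in ileum and by 0.40 ± 0.14 in duodenum, Psmb10 fell by 0.86 ± 0.09 and by 0.35 ± 0.09, and Irf8 fell by 0.92 ± 0.10 and by 0.40 ± 0.08. In duodenum the calls of Psmb8, Psmb10 and Irf8 were lost without the libraries that stood apart, and that of Psmb8 also without the filter, without any 1 of ZT 10, ZT 14 or ZT 22, and without GF ZT 10 replicate 1 or convR ZT 6 replicate 2. Of the most abundant type I targets, Parp14 fell by 0.52 ± 0.14 and Ifih1, a sensor of viral RNA, fell by 0.29 ± 0.06 in GF ileum, while Ddx58 and Irf7 passed in neither tissue.

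The 2 chains of the interferon gamma receptor had positive differences in both tissues (Ifngr2 in duodenum at -0.0070 under scaling by totals alone). The 5 of 26 type I targets called lower in GF duodenum are near the background of 23.8%, and the count ran from 3 to 7 over the alternatives. It was 3 without the libraries that stood apart, without any 1 of ZT 2, ZT 14 or ZT 22, and without any 1 of GF ZT 2 replicate 2, GF ZT 10 replicate 1 or 2, GF ZT 18 replicate 2, convR ZT 2 replicate 1, convR ZT 6 replicate 2 and convR ZT 22 replicate 2. Of 7 interleukin-22 targets, 7 were lower in GF ileum and 4 in GF duodenum, among them the antimicrobial lectin gene Reg3g, by 2.92 ± 0.24 in ileum and 5.54 ± 0.48 in duodenum. Between tissues, 22 of the 26 type I targets and 20 of the 25 interferon gamma targets were lower in ileum (edgeR), against 33.3% of all genes. Of the subunits called, Ifnar2, Il10rb and Ifngr2 (lost under some alternatives) were lower and Ifngr1 higher. Of the marker lists, 6 of 8 T cell and 7 of 8 macrophage and dendritic markers were also lower in ileum, and 8 of 8 epithelium markers higher. Their part in the difference of the targets was not tested.

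**Figure D4:**
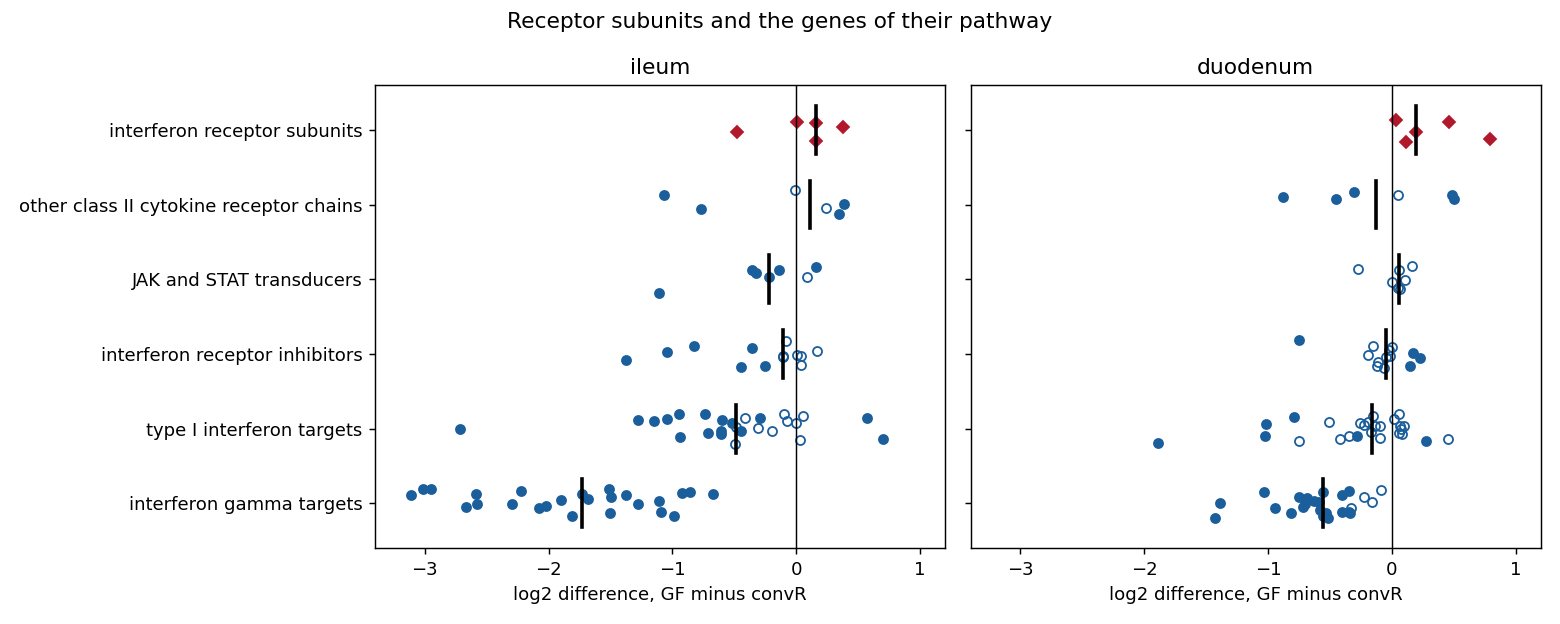
Log2 difference, GF minus convR, for the 5 subunits (red diamonds, untested) and for the tested genes of each pathway list (circles, filled where the adjusted p was under 0.05), in ileum and duodenum. Black bars are medians of the list. The interferon gamma targets have a median of -1.73 in ileum and -0.56 in duodenum. The median of all genes is 0.0068 in ileum and -0.0078 in duodenum. Of the subunits, which were chosen by this difference, 4 of 5 lie above 0 in ileum and 5 of 5 in duodenum. Among them Ifnar1 lies within its SE of 0 in both tissues. Ifnar1 in both tissues and Ifngr2 in duodenum lie below 0 under scaling by totals alone.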

How the data were processed

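The authors deposited raw exon counts per gene with the summed exon length, a whole-number count of reads for each of 47 libraries, per the file headers. Per the labels' protocols, ribosomal RNA was depleted from 250 ng of total RNA, stranded libraries were amplified over 12 PCR cycles, and both ends were read over 100 nt. Per the submitters' processing notes, reads were aligned with STAR 2.4.0i to mm10. How reads were assigned to genes (the program, gene models and strand setting) is not given in the sources used here. PCR reads carry no molecular identifiers, so counts are not independent molecules.

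Of 38087 genes, 36308 were matched by identifier to GENCODE M21 for positions and symbols. Library sizes were adjusted with TMM, the trimmed mean of M values. Genes with low counts were dropped with the edgeR filter at a minimum of 10 counts, which left 18082 in ileum, 17986 in duodenum and 19000 in both. Differences were fitted with edgeR 4.0.16 quasi-likelihood (R 4.3.3) and adjusted by Benjamini-Hochberg over all genes, with a threshold of 5%. The tissue difference came from a fit of all libraries with tissue, status, time and time by tissue, averaged over status. GF and convR were compared within each tissue with time as a factor, and rhythms as a cosine of 24 h averaged over status. Ratios of chains had 0.5 counts added and were tested by 100000 permutations. The tissue, status and averaged rhythm fits were run on simulated data with libraries drawn independently. These data held no deviation shared between libraries, and the rhythm difference between GF and convR was not checked on them. Pairs of libraries of 1 group and time differed by more than sampling noise, the chi-square divided by its degrees of freedom being at least 16.9.

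The genes and lists were chosen with earlier results of these data known. Named genes are the 5 subunits, the measured ligands of type II and III interferon and of the interleukin-10 family and the class II chains, the 4 most abundant genes of each other list, the genes between and beside the subunits on chromosome 16, and the 5 genes most like Ifnar2 and 2 most like each other subunit in pattern. Of the genes this rule names, 2 are not reported here. Fabp6, Gata4 and Arntl serve as checks, and Cmpk2 and Rsad2 were named after their values were seen. A library was taken to stand apart where its TMM factor exceeded 1.2, where pancreas or stomach markers averaged above 100 CPM, or where an ileum library had less than 1000 CPM of Fabp6. These marker levels were relative to library totals, without TMM. Alternatives were DESeq2 1.42.0, its size factors, scaling by totals, no filter, a replicate block, each time or library left out, and the libraries that stood apart left out.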

Additional observations from a re-analysis of the deposited data

Results flagged for a closer look

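Among 52 named genes, 2 had a difference between GF and convR of 1 sign at every time in ileum and of the opposite sign at every time in duodenum. Ifnar2 differed by -0.48 ± 0.06 in ileum and by 0.79 ± 0.08 in duodenum (log2, GF minus convR, ± SE). This is the pattern it was chosen for, and the difference between tissues was not tested for it. Bin1 differed by -0.39 ± 0.12 in ileum and by 0.39 ± 0.10 in duodenum, where its call was lost without the libraries that stood apart (edgeR adjusted p = 0.0528). Bin1 was named for its likeness to Ifnar2, so its signs are not independent of that choice, and the difference between its tissues was not tested. In ileum Bin1 averaged 6.58 ± 1.04 CPM in GF (SD, n = 11) and 8.60 ± 1.86 CPM in convR (SD, n = 12), and in duodenum 29.7 ± 8.58 CPM in GF and 22.9 ± 7.27 CPM in convR (SD, n = 12 each).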

How the results depend on the processing

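The difference of Ifnar2 between tissues passed the threshold under each of the 59 alternatives, from -1.71 to -1.53 on the log2 scale, as did that of Ifngr1, from 0.43 to 0.55, and that of Il10rb, from -0.36 to -0.19. The tissue count of called genes ran from 12420 to 13832, and 3 to 5 of the 5 subunits were called. Ifnar1 turned to 0.014 under scaling by library totals (adjusted p = 0.708). It passed at an adjusted p of 0.0139 to 0.0486 with DESeq2, with its size factors, without the libraries that stood apart, without any 1 of ZT 2, ZT 6 or ZT 18, and without any 1 of 16 libraries (in GF ileum ZT 14 replicate 1 and ZT 10 replicate 2, in convR ileum ZT 6, ZT 10 or ZT 14 replicate 1, in GF duodenum ZT 10 or ZT 14 replicate 1 or 2, ZT 22 replicate 1 and ZT 18 replicate 2, in convR duodenum ZT 6, ZT 14 or ZT 18 replicate 1 and ZT 10 or ZT 18 replicate 2). The call of Ifngr2 was lost, at adjusted p of 0.0511 to 0.0751, without any 1 of 7 libraries (in GF ileum ZT 6 replicate 1 or 2, in convR ileum ZT 18 replicate 1, in GF duodenum ZT 2 replicate 1 and ZT 6 replicate 2, in convR duodenum ZT 14 or ZT 22 replicate 2).

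GF minus convR for Ifnar2 ran from -0.54 to -0.45 in ileum and from 0.66 to 0.86 in duodenum over the alternatives. Of all genes, 8328 were called in duodenum, and 5299 without the 10 libraries that stood apart. Without these 10, both statuses remained in duodenum only at ZT 2, ZT 10 and ZT 18. Of 59 tested differences of other named genes past the threshold, 15 lost the call under at least 1 alternative and 0 changed sign, and of 39 not past it, 14 passed under at least 1 alternative and 20 changed sign under at least 1. Under scaling by totals 2316 were higher and 4866 lower in ileum, against 3535 higher and 4052 lower, and 2143 were higher and 6618 lower in duodenum, against 4041 higher and 4287 lower.

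The number of rhythmic genes in duodenum was 1010, with 1702 by DESeq2, 1546 without ZT 6, 199 without ZT 10, 401 without ZT 14 and 440 without ZT 18, and 659 to 1323 with 1 library left out, lowest without GF or convR ZT 10 libraries. In ileum it was 609, with 1155 by DESeq2, 385 with time as a factor, 345 without ZT 6, 204 without ZT 10, 142 without ZT 14, 354 without ZT 18 and 1237 without ZT 22, and 425 to 956 with 1 library left out, highest without convR ZT 22 replicate 1. Of the subunits in duodenum 1 was called under scaling by totals, 1 by DESeq2, 2 (Ifnar1 and Ifnar2) without ZT 6, and 0 to 1 with 1 library left out (Ifnar1, without convR ZT 6 replicate 1 or convR ZT 10 replicate 2).

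With a replicate block the tissue difference was -1.58 for Ifnar2 and -0.09 for Ifngr2 (adjusted p = 0.0451), 4 of 5 subunits were called and no call of a subunit changed. Libraries with equal numbers were counted as deviating together at a correlation over 0.1. Between tissues they did so in convR at 6 of 6 times (correlation 0.246 to 0.559), but in GF at 1 of 5 times. Between statuses they did so at 2 of 5 times in ileum and 2 of 6 in duodenum, so the numbers were not taken as pairs. The permutation test of the ratios exchanged tissue labels without such pairs and was not repeated with them. The cause of these changes was not tested. With 2 libraries per time, small rhythms cannot be seen.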

Other observations

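Other marker lists moved with status or tissue in the same libraries. The 7 B and plasma cell markers summed to 37.6 to 107.3 CPM in GF ileum, 565.8 to 1277 CPM in convR ileum, 116.8 to 359.2 CPM in GF duodenum and 1200 to 2346 CPM in convR duodenum. The 7 smooth muscle markers summed to 1819 to 2469 CPM in GF ileum, 1323 to 2027 CPM in convR ileum, 659.6 to 950.6 CPM in GF duodenum and 551.2 to 1197 CPM in convR duodenum, and 7 of 7 rose in GF ileum while 1 of 7 rose in GF duodenum (edgeR, adjusted p under 0.05). The 8 fibroblast and endothelium markers summed to 412.5 to 585.1 CPM in GF ileum, 525.1 to 811.3 CPM in convR ileum, 436.9 to 564.0 CPM in GF duodenum and 456.9 to 837.0 CPM in convR duodenum. The 10 pancreas acinar markers reached 9274 CPM in 1 GF duodenum library and 3540 CPM in 1 convR duodenum library, and stayed at or under 6.02 CPM in ileum. Their part in the levels of the receptor subunits was not tested.

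Of the 26 type I interferon targets, 2 rose and 14 fell in GF ileum. Those that rose were Cmpk2, by 0.57 ± 0.07 (log2 ± SE, edgeR adjusted p = 1.18e-06), and Rsad2, by 0.70 ± 0.26 (adjusted p = 0.041, a call lost under 20 of 35 alternatives, with adjusted p up to 0.159, among them scaling by totals alone, no filter, the replicate block and 13 of the 23 ileum libraries left out 1 at a time). Cmpk2 was the 1 gene of the list called higher in ileum than in duodenum, by 0.68 ± 0.10. Both were singled out after their values were seen.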
